A study of Mus musculus with 13 samples.

Results

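The genes examined here are Trp53, which encodes p53, and genes that control p53 or that p53 is known to switch on, in chemically induced squamous cell carcinomas of the skin of mice with and without the histone methyltransferase G9a. The list held 38 genes. Each was read by the probe sets whose only symbol in the platform annotation is that gene, taking the brightest, and 34 of the 38 had such a probe set, among 17097 genes in all. Trp53 itself and the targets Bax, Gdf15 and Fdxr were not analysed here. Arrays measured total RNA of 6 tumours from G9a WT mice and 7 tumours from G9a cKO mice, and all 13 had the same treatment. The carcinogen DMBA (0.25 mg/ml) and the tumour promoter TPA (0.02 mg/ml), 200 µl of each in acetone, went onto shaved back skin weekly for 6 weeks from 8 weeks of age. TPA was then given 2 times a week, for at most 20 weeks. The labels do not say what drives the deletion in the cKO mice or whether the tumours are from separate animals, so p-values measure only the spread between these samples, which may be technical.

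p53 is a transcription factor that accumulates after DNA damage or oncogene activity and switches on genes that halt the cell cycle, repair DNA or lead to cell death. It also switches on its own inhibitors, among them the ubiquitin ligase Mdm2 and the phosphatase Ppm1d (Wip1), which closes a negative feedback loop. In skin carcinogenesis by DMBA and TPA, loss of p53 is known to favour the passage from benign papilloma to carcinoma.

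Some features of the whole data set bear on these genes. On its probe set 2 Ehmt2, the G9a gene, fell from 8.33 ± 0.19 (SD, n = 6) to 6.01 ± 0.10 (SD, n = 7) on the log2 scale (exact permutation p = 0.000583, two-sided, the smallest these groups can give). Its probe set 1 differed by 0.13 (exact permutation p = 0.131), and the labels do not place either relative to the deleted part. Values were spread more widely on WT arrays (SD over probe sets 1.91 to 1.94) than on cKO arrays (1.83 to 1.88), at array medians of 5.09 to 5.14. In 6 pairs of arrays deposited side by side within a group, the deviations from the group mean were near mirror images (r over genes from -0.956 to -0.88), and cKO replicate 1 had no such partner. Each difference (cKO minus WT, log2) was therefore fitted with limma without and with a term for these pairs. With that term, p-values rest on the spread inside the pairs, to which cKO replicate 1 adds nothing. They do not measure the spread between pair means. The SD over genes was 0.20 to 0.22 inside the pairs and 0.035 to 0.053 for the pair means. The exact permutations, of Ehmt2 here and of Cdkn1a below, took no account of the pairs. "Rose" and "fell" are used where the Benjamini-Hochberg adjusted p over 17097 genes was under 0.05 both ways. By that rule 24.7% of all genes passed, 14.4% higher and 10.3% lower in cKO tumours. Without the pair term 45.8% passed, 25.7% higher and 20.1% lower.

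The members that fell in cKO tumours were the p53 inhibitors Mdm2 and Ppm1d, the stress kinases Plk2 and Plk3 and the DNA damage sensor Xpc, and no member rose. These 5 were 14.7% of the 34 measured, while 10.3% of all genes fell. Members were mostly bright: 23 of the 34 lay in the 3 highest deciles of level, where 4 of the 23 (17.4%) fell, against 16.3% of all genes there, so the share of members that fell was near that of genes of like level. Without the pair term 9 members (26.5%) were lower and 1 (2.94%) higher. The groups did not overlap for 4 of the 34 members, all lower (11.8%), against 23.0% of all genes in either direction and 8.86% lower. The other 24 members passed neither fit, 15 with a lower and 9 with a higher mean in cKO tumours. The median difference of the 34 members was -0.16, against 0.02 for all genes and -0.10 for all genes of the 3 highest deciles. Quantile normalization, which gives every array the same spread, moved the members' median to -0.07 and that of all genes to 0.04. It left 3 of the 34 members (8.82%) lower in both fits (Ppm1d, Plk2 and Xpc), against 7.87% of all genes, and none higher, against 15.1%. Without the pair term it gave 6 lower and 4 higher of the 34 members, against 16.8% and 27.8% of all genes.

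**Figure D1:**
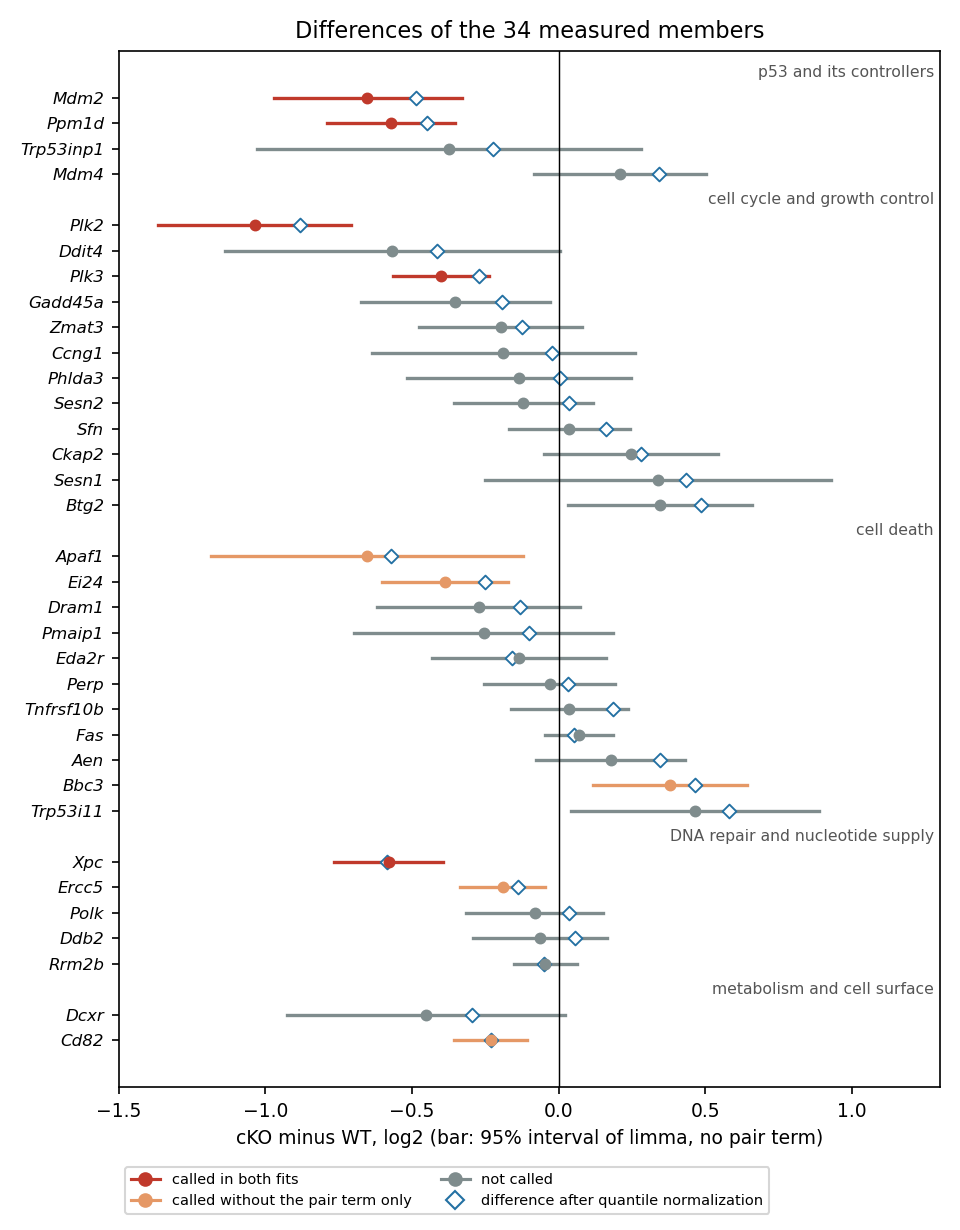
Difference between cKO and WT tumours (cKO minus WT, log2) for the 34 measured members, grouped by role, with limma's 95% interval without the pair term as a bar and the difference after quantile normalization as a diamond. The 5 members called in both fits lie left of 0, from Plk2 at -1.04 to Plk3 at -0.40.

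Promoter windows (RefSeq, GRCm38.p6, 250 bases before to 50 after the gene's start) are printed for 4 of the 5 members that fell, to show which regulatory letters these genes carry. The rule for printing, the 3 smallest p among members called in both fits, named Plk2, Xpc (not printed) and Ppm1d, and Plk3 and Mdm2 were added after their values were seen. The windows are chr13:110394794-110395093 on the plus strand for Plk2, chr11:85311004-85311303 on the plus strand for Ppm1d, chr4:117133914-117134213 on the minus strand for Plk3 and chr10:117710709-117711008 on the minus strand for Mdm2. Capitals mark the p53 half-site consensus and TGACGT on either strand, the core of the cAMP response element TGACGTCA.
Plk2: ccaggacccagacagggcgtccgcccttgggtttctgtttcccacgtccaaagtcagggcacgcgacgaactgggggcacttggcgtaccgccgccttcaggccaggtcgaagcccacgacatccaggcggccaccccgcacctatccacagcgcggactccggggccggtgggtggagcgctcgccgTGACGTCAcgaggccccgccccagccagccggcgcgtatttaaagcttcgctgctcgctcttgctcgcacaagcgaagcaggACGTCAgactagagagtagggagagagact
Ppm1d: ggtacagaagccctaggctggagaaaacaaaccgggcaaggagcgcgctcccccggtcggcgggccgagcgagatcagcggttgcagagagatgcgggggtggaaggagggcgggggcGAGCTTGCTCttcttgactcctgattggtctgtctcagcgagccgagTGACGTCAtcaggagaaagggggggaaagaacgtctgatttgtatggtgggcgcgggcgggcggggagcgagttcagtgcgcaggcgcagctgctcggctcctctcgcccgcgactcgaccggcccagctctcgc
Plk3: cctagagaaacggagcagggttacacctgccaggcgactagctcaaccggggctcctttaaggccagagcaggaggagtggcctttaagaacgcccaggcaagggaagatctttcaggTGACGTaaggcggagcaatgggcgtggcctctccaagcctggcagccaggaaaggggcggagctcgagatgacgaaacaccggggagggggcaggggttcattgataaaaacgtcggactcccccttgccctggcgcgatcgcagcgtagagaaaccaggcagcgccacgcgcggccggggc
Mdm2: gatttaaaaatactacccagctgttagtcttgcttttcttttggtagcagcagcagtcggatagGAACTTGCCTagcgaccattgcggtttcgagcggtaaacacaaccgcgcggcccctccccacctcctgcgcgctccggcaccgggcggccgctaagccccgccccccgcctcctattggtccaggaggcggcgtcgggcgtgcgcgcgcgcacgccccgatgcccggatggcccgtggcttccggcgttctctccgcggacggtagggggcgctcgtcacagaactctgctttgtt
Ppm1d held the half-site GAGCTTGCTC, starting 132 bases before the gene's start, and Mdm2 held GAACTTGCCT, 186 bases before it. TGACGTCA began 62 bases before the start of Plk2 and 85 before that of Ppm1d, and the shorter TGACGT 132 before that of Plk3. Of the 34 members 26 had a window, and 9 of them (34.6%) held a half-site, against 8.65% of 13605 genes on the arrays. The members were listed as p53 genes, so this describes the list. Windows with 2 half-sites at most 13 bases apart numbered 0 of the 26, against 0.0441% of the 13605 genes. TGACGT was searched for after the sequences had been read, and stood in 4 of the 26 (Plk2, Ppm1d, Plk3 and Btg2, 15.4%) against 11.1% of the 13605 genes. The longer TGACGTCA, which contains it, stood in 3 of the 26 (11.5%) against 2.93%. A match says only that these letters stand in the window.

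The regulators of p53 on the list differed among themselves. Mdm2, the ubiquitin ligase that marks p53 for degradation and is itself a p53 target, ran from 9.27 over a median of 9.74 to 10.03 on WT arrays and from 8.76 over a median of 9.04 to 9.52 on cKO arrays. The groups overlapped, with 5 of 7 cKO arrays below every WT array. Mdm2 fell by 0.65 (1.57-fold, SE 0.15), with limma adjusted p of 0.00317 without and 0.0353 with the pair term. Its second probe set fell by 0.40 (adjusted p = 0.00825 and 0.0477). With the pair term the Mdm2 call was lost without WT replicate 6, 7, 8 or 9 or cKO replicate 2 or 9 (adjusted p up to 0.0786) and after quantile normalization (0.0915).

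Ppm1d, the phosphatase that removes activating phosphates from p53, showed no overlap between the groups. WT arrays ran from 7.63 over a median of 7.83 to 7.99 and cKO arrays from 6.92 over a median of 7.22 to 7.57. Ppm1d fell by 0.57 (1.49-fold, SE 0.10, adjusted p = 0.000583 and, with the pair term, 0.0162). Its second probe set fell by 0.72 (adjusted p = 0.000977 and 0.0193), so both readings moved the same way. Mdm4, a relative of Mdm2 that masks the activating domain of p53, had a level of 7.65 ± 0.30 in WT and of 7.86 ± 0.23 in cKO tumours, and differed by 0.21 (95% interval -0.08 to 0.50). Trp53inp1, a nuclear protein that p53 induces, had the widest spread of the members in cKO tumours, 8.29 ± 0.71 against 8.66 ± 0.38 in WT (adjusted p = 0.334).

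Plk2, a polo-like kinase known for roles at the centriole and under stress, had the largest difference of the 34 members. WT arrays ran from 9.62 over a median of 9.84 to 10.12 and cKO arrays from 8.41 over a median of 8.83 to 9.26, and all 7 cKO arrays lay below all 6 WT arrays. Plk2 fell by 1.04 (2.05-fold, SE 0.15, adjusted p = 0.000152 and, with the pair term, 0.00890). No other member changed over 2-fold, as 1.48% of all genes had in both fits. With the replicate number as a block the difference was -0.95 (adjusted p = 0.0628). Plk3, a related kinase, ran from 7.70 over a median of 7.88 to 8.10 in WT and from 7.34 over a median of 7.47 to 7.67 in cKO tumours, also without overlap. Plk3 fell by 0.40 (1.32-fold, SE 0.08, adjusted p = 0.000956 and 0.0207). After quantile normalization the Plk3 difference was -0.27 (adjusted p = 0.0107, and 0.0791 with the pair term). The 18 hybridisation control probe sets were all higher on cKO arrays, by 0.057 to 0.493, the opposite direction to Plk3 but a like size.

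The other members that act on the cell cycle and growth passed neither fit. Sfn, the keratinocyte 14-3-3 protein that holds cells before mitosis, read 10.46 ± 0.12 and 10.50 ± 0.22, with a 95% interval of -0.17 to 0.24 for the difference. Btg2, an antiproliferative gene, read 10.28 ± 0.28 and 10.63 ± 0.28 (difference 0.35, adjusted p = 0.0684). After quantile normalization the Btg2 difference was 0.49 (adjusted p = 0.0148, and 0.0904 with the pair term). Gadd45a, a growth arrest and DNA damage gene, and Ddit4 (Redd1), which restrains mTOR, differed by -0.35 and -0.57 (adjusted p = 0.0695 and 0.0968). Ccng1, a cyclin often used as a readout of p53, differed by -0.19 (adjusted p = 0.480). Its dimmer probe sets differed by -0.49 and -0.43 (adjusted p = 0.0720 and 0.0490, and 0.203 and 0.135 with the pair term). The Akt inhibitor Phlda3, the RNA-binding protein Zmat3 and the spindle protein Ckap2 differed by -0.14, -0.20 and 0.25 (adjusted p = 0.560, 0.227 and 0.161).

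The sestrin genes, whose products sense stress and damp mTOR, depended on the probe set. The brightest Sesn1 probe set differed by 0.34 (adjusted p = 0.328) and the second by 0.46 (adjusted p = 0.0304, and 0.125 with the pair term). The third and dimmest rose from 4.22 ± 0.22 to 4.96 ± 0.29 (adjusted p = 0.000725 and 0.0168). Sesn2 differed the other way, by -0.12 (adjusted p = 0.393) and, on its second probe set, -0.37 (adjusted p = 0.0384, and 0.144 with the pair term).

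**Figure D2:**
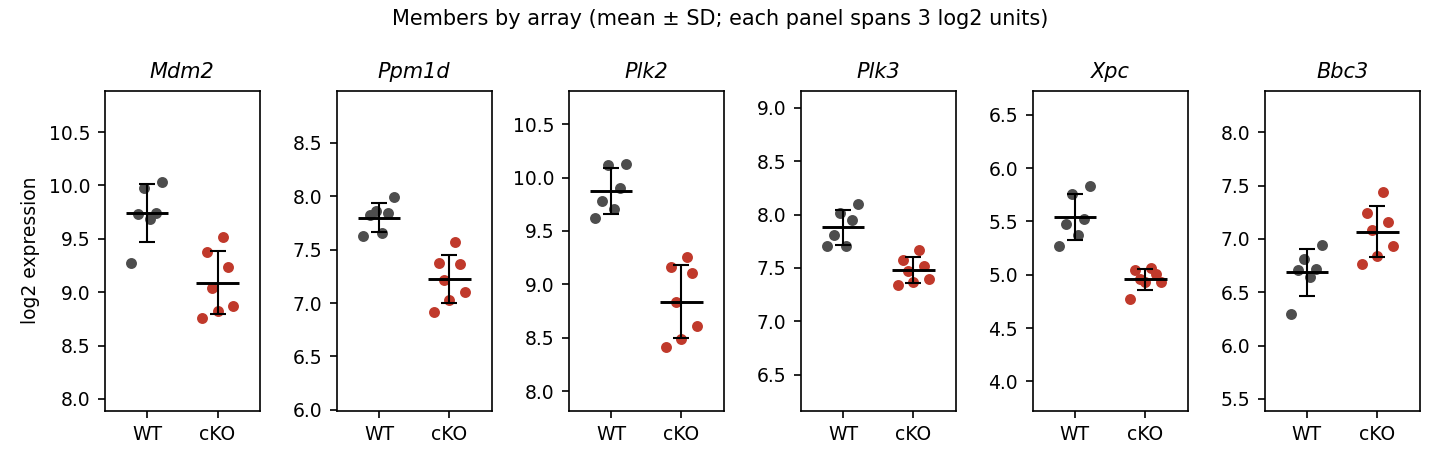
Log2 expression on each array for the 5 members that fell and for Bbc3, the member higher without the pair term (points are arrays, lines and bars the mean ± SD, 6 WT and 7 cKO). The groups do not overlap for Ppm1d, Plk2, Plk3 and Xpc, and overlap for Mdm2 and Bbc3.

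Genes of cell death held no member that passed both fits on its brightest probe set. Bbc3 (Puma), a BH3-only protein that triggers mitochondrial apoptosis, ran from 6.29 over a median of 6.71 to 6.95 in WT and from 6.77 over a median of 7.09 to 7.44 in cKO tumours. Of the 7 cKO arrays 4 lay above every WT array. The difference was 0.38 (SE 0.12, limma adjusted p = 0.0207, and 0.108 with the pair term). Pmaip1 (Noxa), the other BH3-only gene, read 9.79 ± 0.53 and 9.54 ± 0.22 (adjusted p = 0.325). Apaf1, the scaffold on which caspase-9 is activated, differed by -0.65 (adjusted p = 0.0444, and 0.160 with the pair term). The Apaf1 call without the pair term was kept in 4 of 13 fits that left out 1 array, with an adjusted p of up to 0.0968. The other Apaf1 probe set differed by -0.46 (adjusted p = 0.0106, and 0.0618 with the pair term). Ei24, a protein of the endoplasmic reticulum, differed by -0.39 (adjusted p = 0.00688, and 0.0576 with the pair term).

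Perp and the receptors Fas, Eda2r and Tnfrsf10b passed neither fit on their brightest probe sets. Perp, a desmosomal p53 and p63 target needed in skin, read 11.62 ± 0.09 and 11.59 ± 0.26, with a 95% interval of -0.26 to 0.19 for the difference. The death receptor Fas and the ectodysplasin receptor Eda2r differed by 0.07 and -0.14 (adjusted p = 0.314 and 0.439). Tnfrsf10b, the mouse TRAIL receptor, read 8.05 ± 0.13 and 8.09 ± 0.21 on its brighter probe set (adjusted p = 0.766), while its other one fell from 6.46 ± 0.17 to 5.73 ± 0.29 (adjusted p = 0.000529 and, with the pair term, 0.0102). The exonuclease Aen, Trp53i11 and the autophagy gene Dram1 differed by 0.18, 0.47 and -0.27 (adjusted p = 0.236, 0.0684 and 0.179). Aen and Trp53i11 passed after quantile normalization without the pair term (adjusted p = 0.0412 and 0.0223) and not with it (0.155 and 0.114).

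Xpc was the DNA repair member that fell. It encodes the protein that recognises helix-distorting lesions and starts nucleotide excision repair, the pathway that removes bulky adducts. WT arrays ran from 5.27 over a median of 5.50 to 5.83 and cKO arrays from 4.77 over a median of 4.96 to 5.06, with all 7 cKO arrays below all 6 WT arrays. Xpc fell by 0.58 (1.49-fold, SE 0.09, adjusted p = 0.000168 and, with the pair term, 0.00903), and its difference was -0.59 after quantile normalization. Its level lay within the range of group means of the 23 nonspecific control probe sets, 3.01 to 6.32, whose differences between the groups ran from -0.307 to 0.082. Ckap2, Fas, Eda2r, Rrm2b and Cd82 also had a group mean in that range.

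No other repair gene of the list passed both fits on its brightest probe set. Ddb2, which finds photoproducts and hands them to Xpc, read 7.47 ± 0.19 and 7.41 ± 0.21, with a 95% interval of -0.29 to 0.16. Its dimmer probe set differed by 0.35 (adjusted p = 0.0436, and 0.151 with the pair term). Ercc5 (Xpg), the nuclease that cuts on the 3′ side of a lesion, differed by -0.19 (adjusted p = 0.0345, and 0.153 with the pair term), a call kept without that term in 5 of 13 fits that left out 1 array (adjusted p up to 0.0737). Polk, a polymerase that copies past bulky adducts, read 7.35 ± 0.26 and 7.27 ± 0.15 (difference -0.08, 95% interval -0.32 to 0.15). Rrm2b, a p53-inducible subunit of ribonucleotide reductase, read 5.53 ± 0.12 and 5.48 ± 0.05. A dim second Rrm2b probe set rose from 3.81 ± 0.16 to 4.08 ± 0.06 (adjusted p = 0.00325 and 0.0406), dimmer than 4.29, the upper quartile level of those controls. The carbonyl reductase Dcxr read 8.83 ± 0.48 and 8.38 ± 0.37. The tetraspanin Cd82 and Dcxr differed by -0.23 and -0.45 (adjusted p = 0.00559 and 0.110, and 0.0585 and 0.258 with the pair term).

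**Figure D3:**
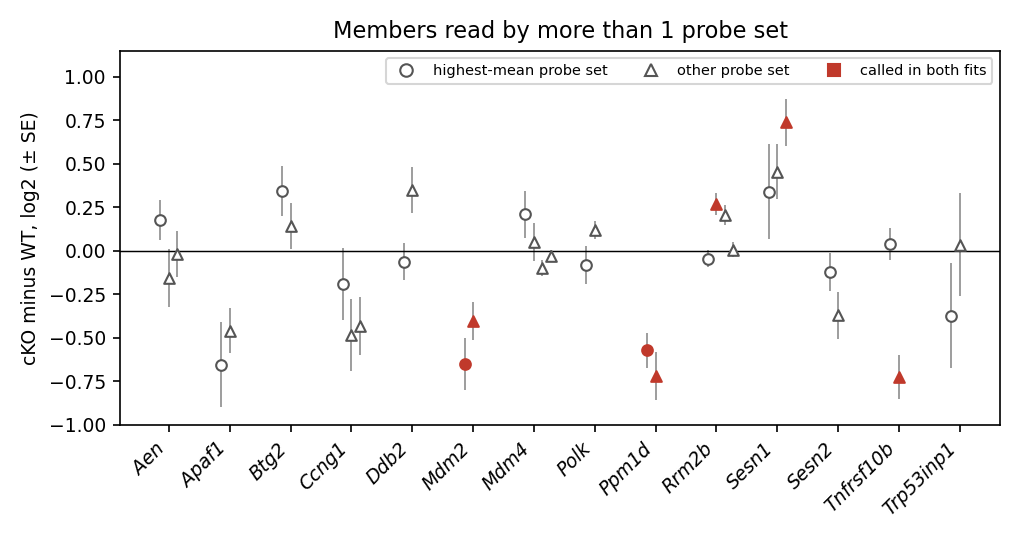
Difference between cKO and WT tumours (cKO minus WT, log2, ± SE) for each probe set of the 14 members read by more than 1, with the brightest as a circle, the others as triangles and those called in both fits in red. Mdm2 and Ppm1d are red on both probe sets, while those of Tnfrsf10b lie at 0.04 and -0.73.

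Probe sets of a gene often differed in direction. The 14 members with more than 1 had 21 further probe sets, of which 10 had the direction of the brightest and 11 the opposite one. These counts include very small differences, such as -0.02 on the third Aen probe set and 0.006 on the fourth of Rrm2b. The 5 of the 21 that passed both fits were those of Mdm2, Ppm1d and Tnfrsf10b, lower, and of Sesn1 and Rrm2b, higher. The share among the further probe sets of all genes is not given here, so this count has no background. Which transcripts they read is not given in the labels.

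Regulators and cofactors of p53 on a separate list went both ways. Of 22 genes 19 were measured, and 3 rose and 4 fell (36.8%, against 24.7% of all genes). After quantile normalization 2 rose and 3 fell (26.3%, against 23.0% of all genes). Cdkn2a, whose locus encodes p16 and the Mdm2 inhibitor p19Arf, rose from 4.90 ± 0.45 to 5.91 ± 0.49 (adjusted p = 0.00477 and, with the pair term, 0.0497). Both means lay within the range of group means of the nonspecific control probe sets, 3.01 to 6.32. The pair-term call of Cdkn2a was lost in 11 of 13 fits that left out 1 array, all but those without cKO replicate 5 or 9 (adjusted p up to 0.0898), and after quantile normalization (0.0561). The corepressor Daxx and the p53 inhibitor Ppp1r13l (iASPP) rose by 0.20 and 0.30, though the other Ppp1r13l probe sets differed by -0.09 to 0.13 and passed neither fit. Both rises lie within the 0.057 to 0.493 by which the hybridisation controls were higher on cKO arrays.

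Enzymes that modify p53 were among the regulators that fell. The deacetylase Sirt1 fell from 8.25 ± 0.30 to 7.46 ± 0.30 (adjusted p = 0.00132 and 0.0242, and 0.0513 with the pair term without cKO replicate 8). The arginine methyltransferase Prmt5 fell from 8.72 ± 0.16 to 8.23 ± 0.10 (adjusted p = 0.000126 and 0.00669). Trp53bp2 (ASPP2), which directs p53 towards death genes, fell by 0.66 (adjusted p = 0.00127 and 0.0245), and its pair-term call was lost without WT replicate 9 or cKO replicate 8 (adjusted p up to 0.0507). The second Trp53bp2 probe set differed by -0.255 (adjusted p = 0.0991, and 0.234 with the pair term). Usp7, which removes ubiquitin from Mdm2 and p53, fell by 0.23 (adjusted p = 0.00187 and 0.0334). After quantile normalization the Usp7 difference was -0.08 (adjusted p = 0.161), and 8 of 13 fits that left out 1 array lost its pair-term call. The further Usp7 probe sets differed by -0.337 to 0.128, and those at -0.337 and -0.308 passed both fits.

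The relatives of p53 passed neither fit on their brightest probe sets. Trp63, the p63 gene that maintains basal keratinocytes, read 10.99 ± 0.15 and 11.16 ± 0.21 (adjusted p = 0.159). Its dimmest probe set fell from 5.75 ± 0.22 to 4.91 ± 0.15 (adjusted p = 2.64e-05 and 0.00415). Trp73 differed by 0.10 (adjusted p = 0.541).

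Cdkn1a, which encodes the cell cycle inhibitor p21 and is the best known p53 target, overlapped between the groups. It ran from 11.32 over a median of 11.41 to 11.49 on WT and from 11.08 over a median of 11.33 to 11.49 on cKO arrays. The difference was -0.13 (95% interval -0.27 to 0.01, exact permutation p = 0.0839), and -0.04 after quantile normalization. Its second probe set differed by -0.27 (adjusted p = 0.0259, and 0.0889 with the pair term). The mean over both Cdkn1a probe sets differed by -0.20 (limma adjusted p = 0.0458 without the pair term).

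Of 20 further p53 targets on a separate list, Cdkn1a included, 16 were measured, and 1 rose and 5 fell (37.5%, against 24.7% of all genes). After quantile normalization 1 rose and 2 fell (18.8%, against 23.0% of all genes). Abhd4, a lipid hydrolase, fell from 7.66 ± 0.23 to 6.87 ± 0.12 (adjusted p = 2.65e-05 and 0.00432), while its other probe set differed by -0.12 (adjusted p = 0.349). Tnfaip8, a regulator of cell survival, fell from 7.66 ± 0.33 to 6.73 ± 0.34 (adjusted p = 0.000906 and 0.0207). The lipid transfer protein Pltp, the small GTPase Rap2b and the ribosomal protein Rps27l fell by 0.48, 0.34 and 0.31. After quantile normalization their pair-term adjusted p was 0.126, 0.0894 and 0.160, and the pair-term calls of Pltp and of Rap2b were each kept in 6 of 13 fits that left out 1 array. Of the further Rap2b probe sets, that at -0.623 passed both fits and those at -0.535 and -0.018 passed neither. Abcb1a, the multidrug transporter P-glycoprotein, rose from 5.51 ± 0.15 to 6.24 ± 0.14 (adjusted p = 1.30e-05 and 0.00272). Both means lay within the range of group means of the nonspecific control probe sets, 3.01 to 6.32. The dim other Abcb1a probe set differed by 0.08 (adjusted p = 0.242), and the mean over both by 0.41 (adjusted p = 8.11e-05 without the pair term).

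Of 12 cell cycle genes known to be repressed downstream of p53 and p21, 11 were measured. None passed both fits as deposited, against 24.7% of all genes. After quantile normalization Aurka passed both, at 0.53 (limma adjusted p = 0.00204 and, with the pair term, 0.0277). That was 9.09% of the list, against 23.0% of all genes. Without the pair term, as deposited, 45.5% of the list passed, against 45.8% of all genes. The mitotic kinases Plk1 and Aurka were then higher, by 0.51 and 0.40. The cyclin Ccnb2, the checkpoint kinase Bub1 and the centromere histone Cenpa were then lower, at -0.34, -0.34 and -0.40. With array weights 7 genes of the list were lower without the pair term, and after quantile normalization 1.

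**Figure D4:**
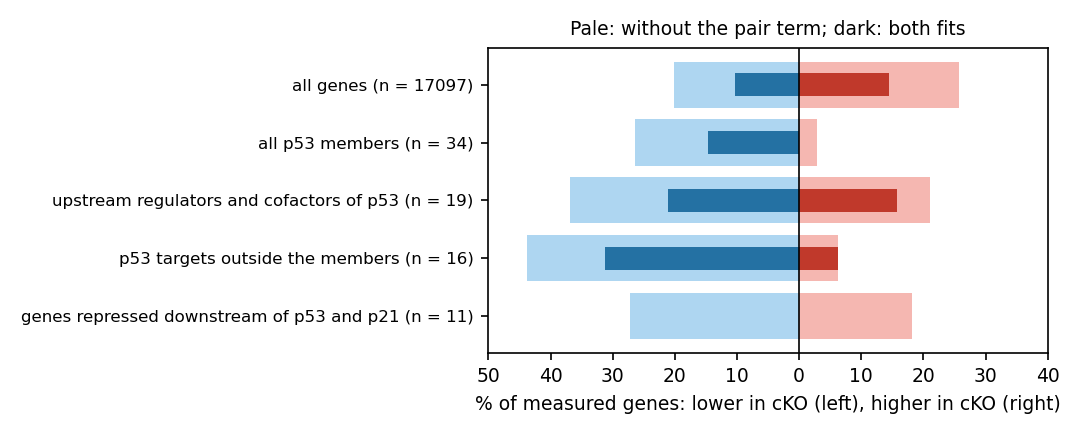
Share of the measured genes of each list that were lower (left) or higher (right) in cKO tumours, without the pair term (pale) and in both fits (dark). The 34 members had 14.7% lower and none higher in both fits, against 10.3% and 14.4% of all genes.

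**Figure D5:**
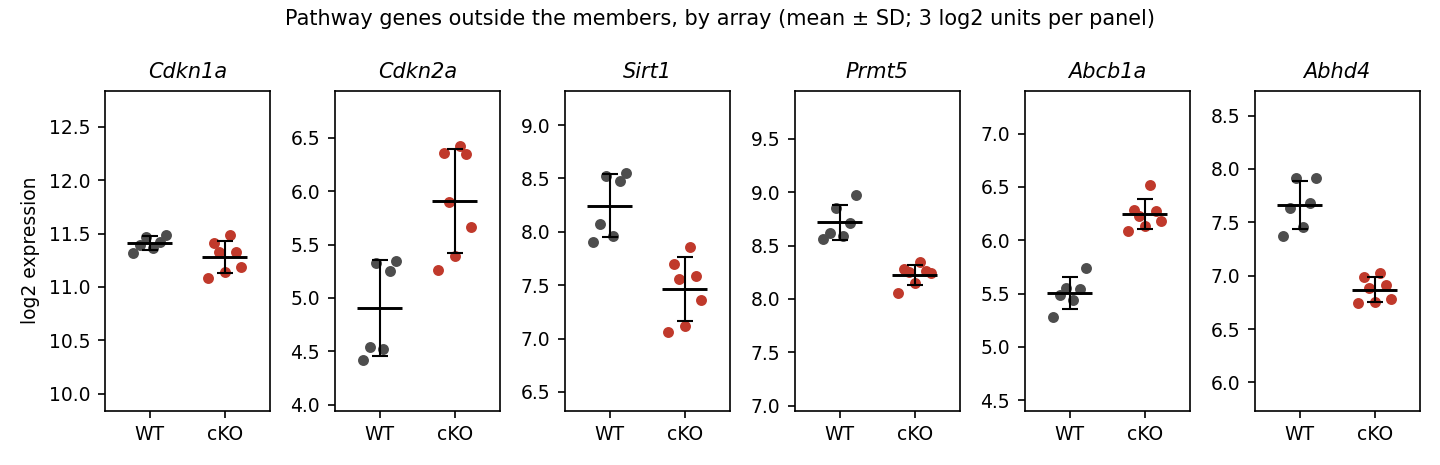
Log2 expression on each array for 6 pathway genes outside the members (points are arrays, lines and bars the mean ± SD, 6 WT and 7 cKO). The groups overlap for Cdkn1a and Cdkn2a and do not for Sirt1, Prmt5, Abcb1a and Abhd4.

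Markers of other cells differed between the groups, and in bulk samples fewer cells of a type and less RNA per cell cannot be told apart. The mean log2 level of 9 keratinocyte markers was 10.82 to 11.06 on WT and 10.73 to 11.09 on cKO arrays, with 1 of the 9 (Krt5) higher and none lower in both fits. That of 8 fibroblast markers was 4.62 to 5.50 and 5.99 to 6.51, and 6 of the 8 rose. Endothelial markers lay at 4.33 to 5.55 and 5.62 to 6.16, with 3 of 6 risen. Myeloid markers lay at 4.48 to 4.64 and 4.95 to 5.48, with 3 of 8 risen. Of 7 suprabasal keratinocyte markers 1 rose, of 5 T cell markers 2 rose and 1 fell, and of 3 B cell markers none passed both fits. Averaged over the arrays, Flg and Dsg1a (the suprabasal marker that rose), Cd3e of the T cell list, Ms4a1 of the B cell list, Col1a2, Lum and Pdgfra of the fibroblast list, Tek of the endothelial list and Ptprc, Adgre1 and Itgam of the myeloid list were dimmer than that same control level (4.29). The part of these cells in the differences of Mdm2, Ppm1d, Plk2, Plk3 and Xpc was not tested.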

How the data were processed

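Total RNA of 13 tumours (6 WT, 7 cKO) was measured on expression arrays. For every array the labels give 25 ng of RNA, 17 cycles and 8 µg of cDNA. RMA produced the deposited log2 values for each probe set, per the submitters' processing notes. Its version and any further adjustment by the authors are unknown here. Of 45141 probe sets 28898 had 1 gene symbol and 551 several, and 28689 were found by gene number in the GRCm38.p6 gene table.

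The brightest probe set over all arrays stood for each of 17097 genes, and no low values were removed. limma 3.58.1 (lmFit and eBayes, R 4.3.3) tested cKO minus WT, two-sided, without and with the pair term, which joins neighbouring arrays whose deviations correlate below -0.8. The scripts were tested on simulated data with independent arrays. These held no mirrored pairs, so the test cannot show how either fit behaves with such pairs. SEs and intervals are without the pair term. p-values of further probe sets were adjusted over all probe sets with 1 symbol. Groups came from the titles. Named genes followed a written rule: every member, with array ranges for those called in both fits or without overlap and levels for up to 2 uncalled ones of highest level per role; outside the members Ehmt2, Cdkn1a, Cdkn2a, Trp63, Trp73 and list genes called in both fits. Bbc3 and the genes called without the pair term were added after their values were seen. The members and lists were chosen with earlier results of these data known. Alternatives were other scalings, filters, probe-set rules, weights, blocks, thresholds and each array left out. The number of arrays limits the precision.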

Additional observations from a re-analysis of the deposited data

How the results depend on the processing

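Ppm1d, Plk2, Plk3 and Xpc kept both calls in all 13 fits that left out 1 array. Over these fits 4 to 5 members were lower in both fits and none higher, 7 to 12 lower and 1 to 3 higher without the pair term, and the median difference ran from -0.21 to -0.10. Higher members numbered 2 without WT replicate 4, 6 or 9 or cKO replicate 3, and 3 without cKO replicate 8. With the pair term alone 5 were lower and 0 higher, and with the pair term after quantile normalization 3 and 0. With a difference over 0.5 and without the pair term 5 were lower and 0 higher. These 5 included Apaf1 (-0.65), which did not pass with the pair term, and left out Plk3 (-0.40). After quantile normalization 3 were lower in both fits, 4 higher without the pair term and the median was -0.075, and -0.075 with that term. At an adjusted p under 0.01, 2 were lower in both fits and 0 higher. Higher members numbered 2 with the mean over probe sets, 4 with array weights and 4 by any probe set, of the last 2 in both fits. The numbers 2, 6, 8 and 9 occur in both groups, and the r of deviations of arrays sharing one was 0.049, -0.298, -0.145 and -0.066. Because deviations of neighbouring arrays nearly mirror each other, such r cannot tell whether arrays sharing a number have anything else in common. With the replicate block, which compares only arrays with these numbers, 6 members were lower and 0 higher. The 6 were Mdm2, Ppm1d, Plk3, Xpc, Cd82 and Pmaip1 (-0.47), and Plk2 was not among them. Apart from quantile normalization without the pair term and in both fits, shares of all genes under these alternatives are not given here. The other counts can therefore not be set against a background.

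Directions turned for members with small differences. After quantile normalization, without and with the pair term, Phlda3 read 0.0043, Sesn2 0.035, Perp 0.031, Ddb2 0.057 and Polk 0.037. With the mean over probe sets Tnfrsf10b read -0.34 (adjusted p = 0.0165), Ddb2 0.14, Rrm2b 0.11 and Polk 0.018, and Trp63, which is not a member, -0.19. With array weights Perp read 0.0034 and Ddb2 0.0033, and with the replicate block Phlda3 0.10, Tnfrsf10b -0.042 and Rrm2b 0.030. With 1 array left out, Sfn ran from -0.006 to 0.089, Tnfrsf10b from -0.014 to 0.089 and Perp from -0.076 to 0.017. The cause was not tested. Of 777 member values under alternatives, 690 kept direction and side of the threshold, 37 lost the call, 25 gained one and 25 turned.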
